A study of Mus musculus with 6 samples.

Results

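Genes of the epidermal growth factor (EGF) system, 10 in number, were examined for binding of RUNX1, a DNA-binding transcription factor, in mouse granulosa cells. They are the ligands Areg, Ereg, Btc, Hbegf, Tgfa and Nrg1, the receptors Egfr and Erbb3, the sheddase Adam17 and the receptor inhibitor Errfi1. The genes were chosen by name as 10 of 21887 protein-coding genes. A RUNX1 peak was counted for a gene when its summit lay inside the gene or within 100 kb of either end. This distance was chosen because several ligands had no site within 10 kb. The chromatin immunoprecipitation sequencing (ChIP-seq) lists held 51515 peaks in all, and 107 of them fell in these windows.

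Granulosa cells surround the oocyte in the ovarian follicle. All groups came from CBA x C57BL/6 F1 mice aged 21 days primed with 5 IU eCG (equine chorionic gonadotropin), a hormone that makes follicles grow. Ovulation was then triggered with hCG, human chorionic gonadotropin, in place of the natural hormone surge. Cells of the 0 h group were taken before hCG. Cells of the 6 h group were taken 6 h after 5 IU of hCG, itself given 46 h after eCG. Each group had 2 RUNX1 libraries and 1 pooled input. The labels do not say whether the replicates came from separate animals or pools, so the spread between them may be technical.

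In this system a ligand is made as a membrane-anchored precursor, is released by a sheddase such as ADAM17, and binds a receptor of the ERBB family. In the ovulating follicle, granulosa cells produce amphiregulin (Areg), epiregulin (Ereg) and betacellulin (Btc) after the hormone surge. These ligands pass the signal on to the EGF receptor of granulosa and cumulus cells, and Errfi1 (also called Mig6) encodes an inhibitor that binds the active receptor. This is background, since peaks measure binding of RUNX1 and not the activity of a gene.

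RUNX1 regions found in both 6 h libraries lay near these genes about as often as near other coding genes. A replicated region is a merged interval that holds a peak of both libraries of a time point. At 6 h the windows of the 10 genes held 36 such regions, 6 around the 6 ligand genes and 30 around Egfr, Erbb3, Adam17 and Errfi1, a split that was not tested. A region was found for 7 of the 10 genes, against 76.7% of coding genes, and Areg, Btc and Nrg1 had none. For 15 of the 36 regions a gene of the list was the closest coding gene, which held for 0 of the 8 around Erbb3 and 1 of the 6 around Adam17. At 0 h none of the 10 genes had a replicated region, against 13.7% of coding genes, and the 4 peaks seen came from 1 library.

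RefSeq promoters (GRCm38.p6) were at hand for Areg, Btc, Tgfa, Egfr, Adam17 and Errfi1, the last with 2. They are shown because RUNX1 regions lay over 1 promoter each of Tgfa, Egfr, Adam17 and Errfi1 at 6 h and over neither that of Areg nor that of Btc. Each is 300 bases long and runs 5′ to 3′ on the strand of the gene, with 250 bases before the start site and the start site as base 251. Capitals mark the matches to 3 motifs searched on both strands. These were the RUNX core TGTGGT or TGCGGT, the cAMP response element TGACGTCA, which reads the same on both strands, and the AP-1 element TGANTCA, which does so too.
Areg, chr5:91139349-91139648, plus strand: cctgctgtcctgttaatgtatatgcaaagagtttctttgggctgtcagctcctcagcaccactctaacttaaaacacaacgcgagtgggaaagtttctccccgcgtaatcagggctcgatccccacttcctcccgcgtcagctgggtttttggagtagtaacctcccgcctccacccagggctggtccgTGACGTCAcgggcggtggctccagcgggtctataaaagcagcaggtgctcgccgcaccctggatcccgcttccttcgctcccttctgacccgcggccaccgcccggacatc
Btc, chr5:91402945-91403244, minus strand: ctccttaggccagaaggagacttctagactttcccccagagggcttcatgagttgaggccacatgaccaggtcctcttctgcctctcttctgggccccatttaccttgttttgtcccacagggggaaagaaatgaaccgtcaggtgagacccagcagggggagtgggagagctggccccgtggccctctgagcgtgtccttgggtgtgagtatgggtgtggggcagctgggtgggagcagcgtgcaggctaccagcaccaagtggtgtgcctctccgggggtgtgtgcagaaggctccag
Tgfa, chr6:86194972-86195271, plus strand: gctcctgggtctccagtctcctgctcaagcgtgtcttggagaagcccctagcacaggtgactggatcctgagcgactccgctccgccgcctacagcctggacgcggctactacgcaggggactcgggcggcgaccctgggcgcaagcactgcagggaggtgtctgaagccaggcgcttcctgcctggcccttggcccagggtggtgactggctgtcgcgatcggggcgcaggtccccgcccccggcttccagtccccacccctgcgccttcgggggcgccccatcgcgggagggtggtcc
Egfr, chr11:16751953-16752252, plus strand: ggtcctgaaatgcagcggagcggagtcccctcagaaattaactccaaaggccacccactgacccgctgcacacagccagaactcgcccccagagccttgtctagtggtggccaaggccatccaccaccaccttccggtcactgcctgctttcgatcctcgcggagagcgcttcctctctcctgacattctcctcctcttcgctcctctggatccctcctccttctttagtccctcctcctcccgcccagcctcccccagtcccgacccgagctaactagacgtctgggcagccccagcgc
Adam17, chr12:21373583-21373882, minus strand: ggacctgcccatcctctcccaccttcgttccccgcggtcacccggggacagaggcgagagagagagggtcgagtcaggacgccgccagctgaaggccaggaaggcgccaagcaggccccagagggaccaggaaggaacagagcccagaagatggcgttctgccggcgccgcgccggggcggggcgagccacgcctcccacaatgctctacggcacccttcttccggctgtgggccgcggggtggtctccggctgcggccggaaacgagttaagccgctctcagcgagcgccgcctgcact
Errfi1 first promoter, chr4:150853546-150853845, plus strand: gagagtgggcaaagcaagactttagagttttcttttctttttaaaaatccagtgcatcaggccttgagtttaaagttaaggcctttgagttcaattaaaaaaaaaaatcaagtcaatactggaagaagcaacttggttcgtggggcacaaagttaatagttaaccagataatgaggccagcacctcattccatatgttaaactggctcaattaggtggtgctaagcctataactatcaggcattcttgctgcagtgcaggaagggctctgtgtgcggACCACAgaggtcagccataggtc
Errfi1 second promoter, chr4:150854820-150855119, plus strand: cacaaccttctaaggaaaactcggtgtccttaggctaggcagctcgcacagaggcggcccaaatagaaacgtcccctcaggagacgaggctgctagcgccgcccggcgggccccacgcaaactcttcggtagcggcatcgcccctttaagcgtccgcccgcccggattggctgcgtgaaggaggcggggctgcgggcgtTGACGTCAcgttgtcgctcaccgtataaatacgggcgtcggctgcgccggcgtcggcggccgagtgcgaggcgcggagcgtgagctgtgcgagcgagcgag

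Only 1 of these 7 promoters held the RUNX letters. It was the first promoter of Errfi1, where TGTGGT is read on the opposite strand at bases 278 to 283, and no list had a peak over that promoter. The 4 promoters under a 6 h region held no RUNX match in their 300 printed bases. The regions reach past these bases, and the rest of their sequence was not searched. For Tgfa and Egfr the summits, 325 and 329 bp downstream of the start site, lay outside the searched bases. Whether the regions hold the RUNX letters elsewhere is therefore not known. Of 21263 promoters of coding genes, 21.6% held a RUNX match, and of the 7649 over a replicated 6 h region 22.9% did. TGACGTCA was found at bases 190 to 197 of the Areg promoter and at bases 200 to 207 of the second Errfi1 promoter. It was held by 2.23% of all coding promoters and 4.20% of those over a replicated 6 h region. The Areg copy had no RUNX1 peak over it and the Errfi1 copy lay under a region in both 6 h libraries. No promoter of the 7 held TGANTCA, which 6.99% of all coding promoters and 3.80% of those over a 6 h region held. A match is a run of letters, not a shown binding site.

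The library values set the frame for all counts. The lists held 948 and 3135 peaks at 0 h and 18761 and 28671 at 6 h, at recovered genome-wide backgrounds of 2.77, 2.65, 2.76 and 2.13 reads per position. At those backgrounds a site needed a pileup of 16 to 18 reads to enter a list, and more where the local background was higher. A missing peak is therefore a value under that limit and not an absence of binding. The number of cells bound and the strength of binding per cell cannot be told apart in pooled cells. Peaks do not measure expression, so the cell type could not be checked on expressed markers. At 6 h replicated regions lay within 10 kb of 9 of 10 granulosa, 2 of 3 theca, 4 of 5 leukocyte, 2 of 4 endothelial and 1 of 4 oocyte markers, against 53.2% of coding genes. At 0 h they lay within 10 kb of 4 granulosa markers, 1 theca marker and 0 of the others, against 4.09%. Within 100 kb the 0 h counts were 4 granulosa, 2 theca, 1 leukocyte, 1 endothelial and 1 oocyte marker, against 13.7%. At 6 h they were 10, 3, 5, 3 and 3 in that order, against 76.7%. The part of other cells in the results was not tested.

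The windows of the 10 genes held 0 peaks in 0 h replicate 1, 4 in 0 h replicate 2, 40 in 6 h replicate 1 and 63 in 6 h replicate 2. Both 6 h lists lay above both 0 h lists. The 0 h libraries had a mean of 2.00 ± 2.83 peaks and the 6 h libraries one of 51.5 ± 16.3 (SD, n = 2 each). The 6 h mean exceeded that of 0 h by 4.52 on the scale of log2(peaks + 1), with p = 0.333 in a two-sided exact permutation test, the smallest p that 2 libraries against 2 can give. With as many peaks per library as the shortest list holds, 948 with the highest −log10 p, the windows held 0 peaks in all 4 lists. The full 6 h lists had only 0.213% and 0.220% of their peaks in the windows, so few would fall there in so short a list. The share of coding genes at this list length was not computed, and the 0 is not a result about these genes.

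As a share of its list, 0 h replicate 1 had 0 of 948 peaks in the windows, which allows a share of up to 0.316% by the limit of 3 counts and 0.388% by the exact Clopper-Pearson 95% interval used for the other libraries. In 0 h replicate 2 the share was 0.128% (exact Clopper-Pearson 95% CI 0.0348 to 0.326). In the 6 h replicates it was 0.213% (95% CI 0.152 to 0.290) and 0.220% (95% CI 0.169 to 0.281). The intervals, which cover counting error only, overlapped between the time points. The libraries of 0 h averaged 0.0638% ± 0.0902 and those of 6 h 0.216% ± 0.00461 (SD, n = 2 each). In the same exact permutation test these means, 0.153 percentage points apart, gave p = 0.333. With 2 libraries per group this test cannot pass 0.05, so whether the share differs between the time points was not resolved.

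A peak of 0 h replicate 1 lay in the windows of 0 of the 10 genes, against 14.8% of coding genes, and one of 0 h replicate 2 in those of 3, against 39.5%. A peak of 6 h replicate 1 lay in 8 of 10, against 76.9%, and one of 6 h replicate 2 in 9 of 10, against 82.2%. Each 6 h list held more peaks than each 0 h list for 7 of the 10 genes, against 73.8% of coding genes. The 3 exceptions were Areg, without a peak, Nrg1, with a peak in 1 library, and Hbegf, with 1 peak each in 0 h replicate 2 and 6 h replicate 2. The shares of the 10 genes thus lay near those of coding genes at 6 h.

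**Figure D1:**
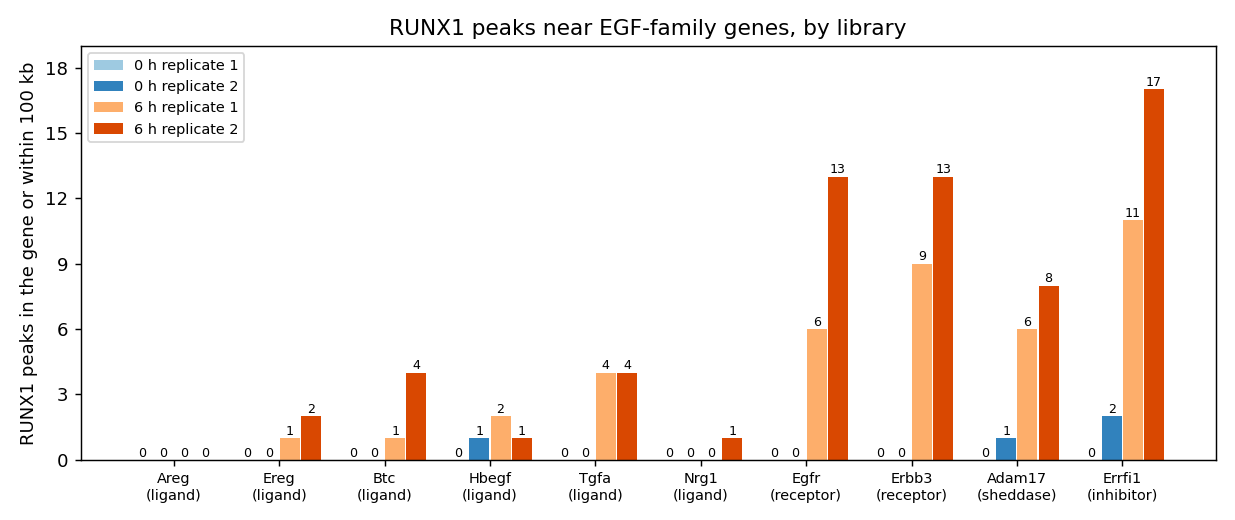
RUNX1 peaks with a summit in each gene or within 100 kb (y axis, number of peaks) for the 10 genes (x axis, with their role), 1 bar per library and the number above each bar. Errfi1 had 11 and 17 peaks in the 6 h replicates, Areg had 0 in all 4 libraries, and the 4 peaks at 0 h all came from replicate 2.

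A replicated 0 h region was found for 0 of the 10 genes, against 13.7% of coding genes. The number of 6 h regions ran from 0 to 10 per gene with a median of 2.50, and the median of all coding genes was 3. Per 100 kb of window the median was 0.947 for the 10 genes and 0.996 for all coding genes. Within 10 kb, 5 of the 10 genes had a 6 h region, against 53.2% of coding genes, and inside the gene body 3 had one, against 35.4%. At 0 h none of the 10 had a region within 10 kb (4.09% of coding genes), inside the gene (2.07%) or as the closest coding gene of a region (3.57%). The list as a whole was near the background in each of these counts. The 15 regions with a gene of the list as the closest coding gene belonged to 4 genes, Errfi1, Egfr, Tgfa and Adam17, and 46.1% of coding genes were the closest to some 6 h region.

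**Figure D2:**
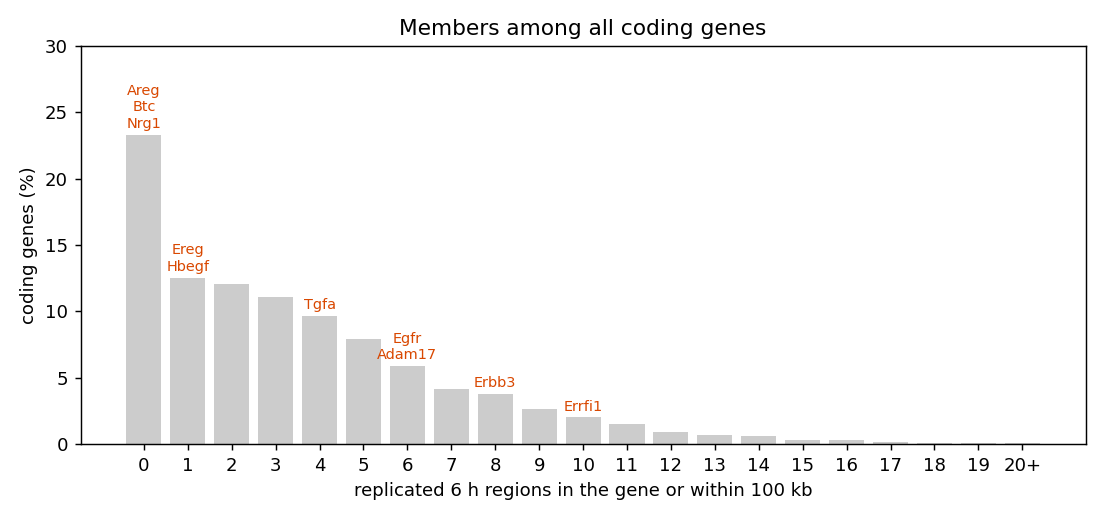
Share of all 21887 coding genes (y axis, percent) by the number of replicated 6 h regions in the gene or within 100 kb (x axis; the last bar holds 20 or more). Areg, Btc and Nrg1 stand at 0, Ereg and Hbegf at 1, and Errfi1 at 10, where 93.2% of coding genes had fewer.

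Among the ligands, Areg, the amphiregulin gene (chromosome 5, 91139599 to 91148432), had no peak in its window in any library. The closest peaks were in the 6 h lists, 102876 and 102843 bp away and so just outside the window, with folds of 15.9 and 23.1. At 0 h the closest peak lay 1615303 bp away in replicate 1 and 772936 bp away in replicate 2. Fold is the authors' enrichment of ChIP reads over local background at the summit, and is not on a common scale across lists. Just inside the window rule, by comparison, were peaks 96501 bp from Errfi1 and 96439 bp from Ereg, with folds of 8.07 and 7.15 in 6 h replicate 2.

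The region outside the Areg window was the single replicated region of its neighbour Ereg, the epiregulin gene (chromosome 5, 91074617 to 91093649). It lay at 91036552 to 91036986, 37861 bp from Ereg and 1544 bp from Epgn, the gene of epigen, another EGF receptor ligand. Its pileup was 79 and 94 reads in the 6 h replicates, at percentiles 86.8 and 88.9 of fold in the lists, and no 0 h peak overlapped it. It was the only replicated region in the windows of Areg, Ereg and Btc. One more peak in the Ereg window, inside Mthfd2l and 96439 bp from Ereg, was called in 6 h replicate 2 alone.

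Btc, the betacellulin gene (chromosome 5, 91357261 to 91402994), had 0 and 0 peaks at 0 h and 1 and 4 at 6 h. None of the 5 overlapped a peak of the other replicate. Those of replicate 2 lay inside Btc and 36705, 49111 and 74069 bp beyond its 3′ end, with folds of 8.94, 12.1, 8.35 and 16.6. The 1 peak of replicate 1 lay 45269 bp away with a fold of 5.15, at percentile 8.31 of its list. Btc is the only coding gene in its window, so no other gene was closer to these peaks.

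Hbegf, the gene of heparin-binding EGF-like growth factor (chromosome 18, 36504927 to 36515805), had 1 replicated region, 44192 bp away and 606 bp from Ankhd1. It spanned 36559363 to 36561344, with folds of 10.4 and 14.9 at 6 h and pileups of 76 and 64 reads. Its summits in the 2 libraries, at 36560358 and 36559997, lay over 100 bp apart, so with summits required within 100 bp Hbegf had 0 regions. A peak of 0 h replicate 2 overlapped it, with a fold of 5.39 and 23 reads. There was no peak within 10 kb of Hbegf in any library, and the binding in its window lay at the end of another gene.

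Tgfa, the gene of transforming growth factor alpha (chromosome 6, 86195038 to 86275744), was the only ligand with regions inside the gene. It had 0 and 0 peaks at 0 h and 4 and 4 at 6 h, which formed 4 replicated regions. The one with the highest mean percentile lay inside the gene at 86212943 to 86213831, 18445 bp from its 5′ end, with folds of 15.9 and 33.1 and pileups of 61 and 106 reads. Its percentiles were 86.8 and 95.4. The second region inside Tgfa covered the promoter printed above, with its summit 325 bp downstream of the start site, folds of 9.06 and 10.2 and percentiles of 54.9 and 46.7. The intragenic site thus ranked above the promoter site by fold in both replicates. The other 2 regions lay about Fam136a and Snrpg, at 89917 and 95746 bp from Tgfa.

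Nrg1, the neuregulin 1 gene (chromosome 8, 31807452 to 32891609), encodes a ligand of ERBB3 and ERBB4 and is the longest gene of the list. Its window of 1284 kb held 1 peak, inside the gene in 6 h replicate 2, with a fold of 7.98 and 24 reads. The closest replicated 6 h region was 493992 bp away, next to Purg. Such a stretch was common among long genes, since 25 of the 49 coding genes with a window at least as long had no replicated 6 h region.

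**Figure D3:**
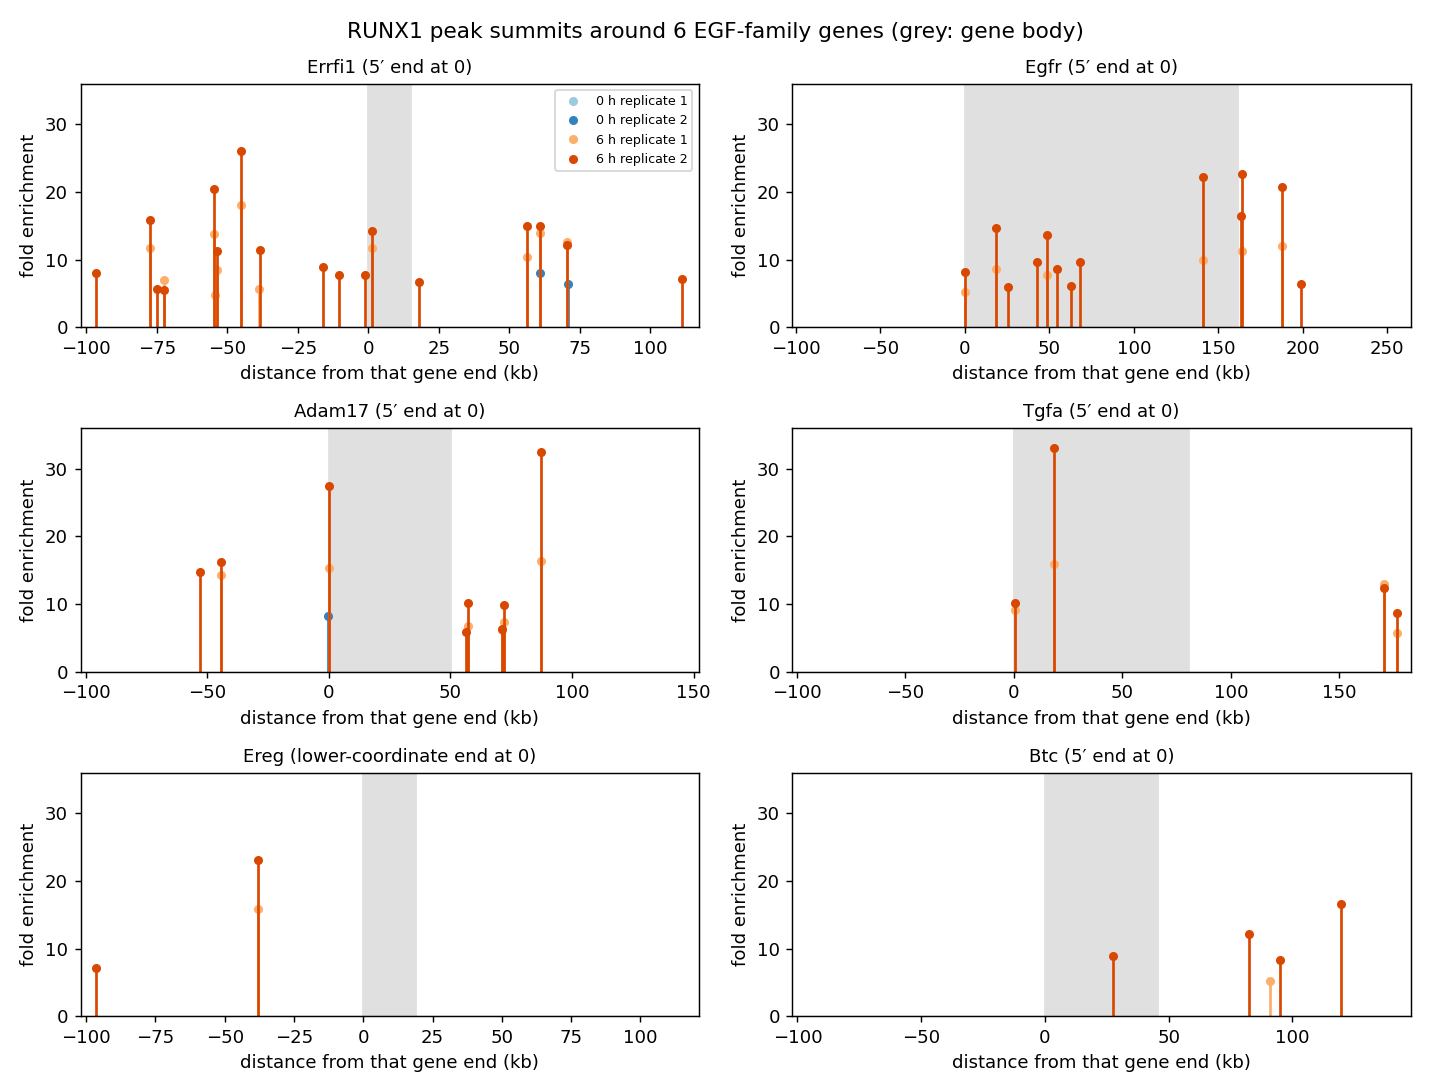
RUNX1 peak summits around 6 genes, with distance from a gene end in kb (x axis), fold enrichment in the list of the library (y axis), the gene body in grey and 1 colour per library. Regions cluster upstream of Errfi1 and within and just beyond Egfr, the Adam17 5′ end has peaks of both 6 h libraries and of 0 h replicate 2, and the Btc peaks do not coincide between replicates.

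Of the receptors, Egfr, the EGF receptor gene (chromosome 11, 16752203 to 16913907), had 0 and 0 peaks at 0 h and 6 and 13 at 6 h. These formed 6 replicated regions, of which 4 were inside the gene and 2 beyond its 3′ end, and Egfr was the closest coding gene for 5. By mean percentile of fold the highest 2 were those beyond the 3′ end, while the region inside the gene at 16892948 to 16893680 had the highest pileup in both replicates, 49 and 90 reads. The region 25728 bp from Egfr and 11589 bp from Fbxo48 had folds of 12.0 and 20.7, and the one 2292 bp from Egfr had folds of 11.2 and 22.7. The promoter region at 16751962 to 16753219 had the lowest folds of the 6, 5.25 and 8.23 at percentiles 8.99 and 27.4. Only the peak of replicate 2 reached the printed promoter, and the summit lay 329 bp downstream of the start site. Inside the gene the regions at 16770737 to 16771119, 16800609 to 16800911 and 16892948 to 16893680 had folds of 8.54 and 14.6, 7.77 and 13.6, and 9.96 and 22.2. In Egfr, then, each of the other 5 regions ranked above the promoter by fold.

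Erbb3, the gene of a receptor for neuregulins (chromosome 10, 128567523 to 128589635), had 0 and 0 peaks at 0 h and 9 and 13 at 6 h, and 8 replicated regions. Its window is dense in genes, with 11 other coding genes, and Erbb3 was the closest coding gene for none of the 8. All 8 summits lay within 1 kb of an end of a coding gene, among them Myl6b, Esyt1, Pa2g4 and Suox. The one with the highest folds, at 128498602 to 128499030, lay 148 bp from Myl6b with folds of 18.5 and 28.5, at percentiles 91.1 and 93.1. It had the highest mean percentile of all 36 regions. At Erbb3 itself the closest peaks were 234 and 734 bp from the gene, with folds of 9.26 and 7.18, and both were called in 6 h replicate 2 alone.

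Adam17, the gene of the protease that releases several EGF-like ligands from the cell surface (chromosome 12, 21323509 to 21373632), was bound at its promoter at 6 h. It had 0 and 1 peaks at 0 h and 6 and 8 at 6 h. The promoter region at 21373353 to 21374538 had pileups of 125 and 180 reads in the 6 h replicates, folds of 15.3 and 27.5 and percentiles of 85.4 and 92.5. Its summit lay 58 bp upstream of the start site. In 0 h replicate 2 the peak at 21373668 to 21374075 overlapped it, with 29 reads, a fold of 8.21 and percentile 66.3, and a summit 290 bp upstream of the gene. In 0 h replicate 1 no peak was called there. Adam17 was the only gene of the list with a 0 h peak within 1 kb.

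The other 5 regions in the Adam17 window lay closer to other coding genes. They included the one with the highest folds of the window, 16.3 and 32.5, at 21285827 to 21286633. Its summit lay inside Itgb1bp1 in replicate 1 and inside Cpsf3 in replicate 2. Its pileups, 65 and 104 reads, were below those of the Adam17 promoter. A region 333 bp from Ywhaq had 140 and 126 reads, and the others lay in Cpsf3 and Iah1. The binding that belonged to Adam17 by distance was therefore that of its promoter. A promoter over a replicated 6 h region was found for 4 of the 6 genes in the promoter table, against 37.9% of coding genes, and a promoter over a peak of 0 h replicate 2 for 1 of 6, against 7.25%.

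Errfi1, the receptor inhibitor gene (chromosome 4, 150853796 to 150868889), had the most regions of the list within 100 kb. Within 10 kb it had 1 region, and Egfr had 5. It had 0 and 2 peaks at 0 h and 11 and 17 at 6 h, and 10 replicated regions, or 4.65 per 100 kb of window, a density above that of 94.9% of coding genes. Of the 10 regions 6 lay upstream of the gene, 1 inside it and 3 downstream. Errfi1 was the closest coding gene for the 6 upstream regions and the one inside.

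The upstream regions of Errfi1 stood 38498 to 77426 bp from the gene. The one with the highest folds, at 150807994 to 150809006 and 45151 bp away, had folds of 18 and 26.0 and pileups of 77 and 109 reads, at percentiles 90.2 and 91.4. The next, at 150798710 to 150799222, had folds of 13.8 and 20.4. None of the 6 overlapped a 0 h peak, and neither did most 6 h regions, of which 16.5% overlapped one. The region over the second promoter, at 150854826 to 150855688, had pileups of 86 and 75 reads, folds of 11.7 and 14.2 and percentiles of 73.2 and 69.2. Its summit lay 61 bp upstream of that start site and no 0 h peak overlapped it.

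The downstream regions of Errfi1 lay at or near Park7 and Tnfrsf9. The 2 peaks of 0 h replicate 2 in the window were here. One, 4756 bp from Park7, had a fold of 7.97 and 29 reads, and the 6 h region over it had folds of 14.0 and 14.9. The other, inside Tnfrsf9, had a fold of 6.41 and 32 reads, and the 6 h region over it had folds of 12.6 and 12.2. Binding at 0 h in the Errfi1 window was thus on the side of the other genes.

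Across the list, 4 of the 36 replicated 6 h regions (11.1%) overlapped a 0 h peak, against 16.5% of all 17190. All 4 overlapped a peak of 0 h replicate 2 and none a peak of replicate 1, which 4.96% of all regions overlapped. Their places were the Adam17 promoter, the site next to Ankhd1, and the pair near Park7 and Tnfrsf9. The summit lay within 1 kb of a coding gene end for 18 of the 36 regions, against 45.1% of all regions. The mean percentile of fold had a median of 68.4 over the 36 regions and 59.1 over all regions, and ran from 7.82 at Rpl41 in the Erbb3 window to 92.1 next to Myl6b. Above percentile 90 were 4 of the 36, against 12.0% of all regions. The regions were 228 to 1982 bp wide with a median of 742 bp, against 611 bp for all.

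**Figure D4:**
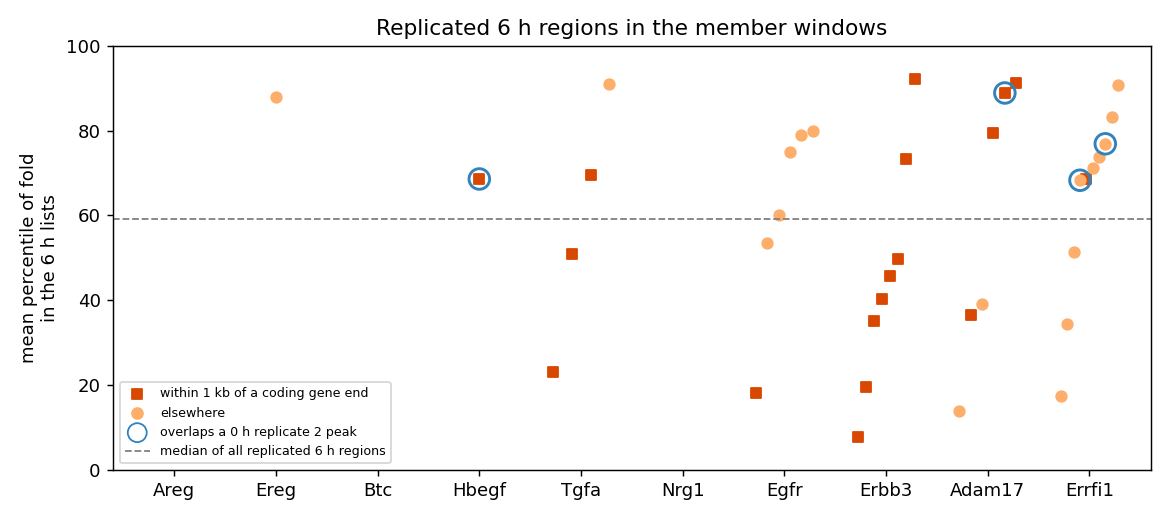
Mean percentile of fold in both 6 h lists (y axis) of each replicated 6 h region in the window of each gene (x axis), with squares for summits within 1 kb of a coding gene end, filled circles for the others, blue rings for overlap with a 0 h replicate 2 peak, and a dashed line at the median of all regions, 59.1. All 8 Erbb3 regions are squares, the upstream Errfi1 regions are filled circles, and no region passes 92.1.

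Other genes of the pathway were taken as a list of 28. Of these 26 had a replicated 6 h region within 100 kb, or 92.9%, against 76.7% of coding genes, with a median of 4.50 regions. At 0 h 2 of the 28 had a region, against 13.7% of coding genes. All 15 signal relay genes, which carry the signal from the receptor to the MAP kinases, had a 6 h region, as did 4 of the 5 other ligands and 1 of the 2 other receptors. All 3 shedding genes and all 3 genes of receptor removal had one. Within 10 kb, 22 of the 28 had a 6 h region, against 53.2% of coding genes. Of the 5 other ligands 1 had a region at this distance, as did 1 of the 6 described above (Tgfa), and a difference between ligands and the other classes was not tested.

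The 2 pathway genes with a region at 0 h were Braf, a kinase of the relay, and Lrig1, which promotes removal of the EGF receptor. The Lrig1 region lay 60643 bp from the gene with folds of 6.15 and 6.51 at 0 h, and a 6 h region there had folds of 24.2 and 30.6. The Braf region lay 91357 bp from Braf, with Dennd2a closer. At 6 h high mean percentiles were found in the windows of Sos2, with 99.1, Araf, with 97.7, and Egf, with 97.3. Their regions lay 53747, 12573 and 75758 bp from these genes, and another coding gene was closer to each. Each of these 3 percentiles was above the highest of the 36 regions of the 10 genes, 92.1.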

How the data were processed

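Per the labels, RUNX1 ChIP-seq of granulosa cells gave single-end reads of 75 nt. Bowtie2 2.2.5, MACS2 and the build mm10 are named in the submitters' processing notes, and the settings are not given in the sources used here. The authors deposited 1 peak list per ChIP library. Each deposited peak has a fold (ratio) over local background and a −log10 p and q. The score column that the authors deposited is a rounded multiple of the −log10 p and stayed unused. The 2 inputs entered only through the peak calls. Genes and promoters are RefSeq on GRCm38.p6, the assembly that mm10 names, with whole genes only, so exons and introns were not separated.

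Peaks sharing at least 1 bp were merged, and the summit of the higher-fold peak placed the region. Percentiles rank fold within a list. Pileup and background were solved from fold and −log10 p (misfit at most 0.005), and a solution was found for 100% of peaks. Peak numbers were tested over libraries as log2(peaks + 1), with 1 added because a list had 0. Overlap, window counts, permutation and the pileup solution were tested on simulated data. Python 3.11.15, pandas 2.3.3, numpy 2.4.6 and SciPy 1.17.1 were used.

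The members, the lists and the distance of 100 kb were chosen with earlier results of these data known. All 10 genes are named. For each, the region with the highest mean percentile is given with its closest coding gene. Of the pathway list, genes with a 0 h region and the 4 highest percentiles at 6 h were to be named, of which 1 is not reported here. Other regions were described after their values were seen. Alternatives changed the distance, the assignment to genes, the −log10 q limit, the list length, the overlap rule and the libraries used.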

Additional observations from a re-analysis of the deposited data

How the results depend on the processing

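Counts near these genes depend on the 6 h list used, on the distance and on how a summit is assigned. The number of replicated 6 h regions, 36, became 11 within 10 kb, 15 where a gene of the list had to be the closest coding gene, and 0 with equal numbers of peaks per library. It ran from 36 to 63 when a library was left out, the 63 being all peaks of 6 h replicate 2 without replicate 1. The number of genes with such a region, 7, became 6 with summits within 100 bp (32 regions, without that of Hbegf), 4 by closest gene and 0 with equal numbers, and ran from 7 to 9 without a library. At 0 h the number of regions ran from 0 to 4, and of genes with one from 0 to 3, when a library was left out. The 4 regions in 3 genes were the peaks of 0 h replicate 2, without replicate 1. The difference in peak number, 4.52 on the scale of log2(peaks + 1), ranged between 3.36 and 5.68 when 0 h replicate 1 or 2, in that order, was left out. The difference in share, 0.153 percentage points, ran from 0.0889 to 0.216 when a library was left out, and was 0.0552 within 10 kb, 0.0887 by closest gene and 0.201 at a −log10 q of at least 20. With equal numbers of peaks both were 0 (0.00 on the log2 scale), since no peak was left in the windows. Both kept their direction within 10 kb, by closest gene and at a −log10 q of at least 20. Swapping time points only within a replicate number (replicate block) left the differences at 4.52 and 0.153, with an exact permutation p of 0.5, the smallest that 2 pairs can give. The labels do not say what the numbers share, and the replicate differences at 0 h and 6 h had a correlation of -0.037 over 21887 coding genes. The number of libraries limits every comparison, and a −log10 p near 9 hides sites under about 16 to 18 reads.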
